A study of Mus musculus with 68 samples.

Results

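Apical progenitors (APs) of the embryonic day (E) 11 mouse cortex were compared by how much Neurog2 each cell expressed. The 23 cells, of 68 single cells on arrays in the whole series, were the E11 cells named as APs by the rule that defined them. Of 30 E11 cells, the 3 neurons 30F, 32J and 43D, the 3 intermediate progenitors (IPs) 41G, 42M and 45O, and the cell 31i were set aside. The 23 APs were ordered by the signal of the single Neurog2 probe set, and the 6 highest were set against the 6 lowest across all other genes, with the 11 between them kept for comparison. The split was therefore made by a measured value, and Neurog2 itself is described here without any comparison.

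All E11 cells came from the dorso-lateral cerebral wall of CD1 mice, with no transgene and no treatment, and were dissociated with trypsin and picked by hand under a microscope. The labels do not say which embryo or litter a cell came from, and the study chose its cDNAs for hybridization by marker expression. The 2 groups differ in nothing that the labels record, apart from the numbers in the cell names, whose meaning is not given. The AP, IP and neuron types were assigned by the study from the same arrays, so the levels of markers describe those types and do not check them independently. E16 cells, taken from fragments of the ventricular and subventricular zone of the same region, were used for correlations with Neurog2 in cells outside the ranking.

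Neurog2 is a proneural basic helix-loop-helix transcription factor that pushes cortical progenitors out of self-renewal and towards IPs and neurons. In progenitors it is opposed by Notch signalling. The ligand Delta-like 1 on one cell activates Notch receptors on its neighbours, and the cleaved receptor acts with the DNA-binding protein Rbpj to switch on Hes repressors, which keep Neurog2 low. Neurog2 in turn activates Dll1, and its level is known to go up and down within single progenitors before a cell commits. 

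Each array is 1 cell and a group of cells counts as 1 sample, so no p-value or standard error was computed and every SD given is the spread between cells. Levels are log2 signals after all arrays were quantile normalized together. The 20-copy level is the median signal of a bacterial RNA added at 20 copies per cell, and equals 842.4, or 9.72 on the log2 scale. Signals under it have no reliable order of copies, so counts of cells at or above it are given beside the means. The trimmed mean signal of the deposited values ran from 87.0 to 297.5 in the Neurog2-high cells and from 128.6 to 272.0 in the Neurog2-low cells. Genes at or above the 20-copy level numbered 2709 to 2854 in a Neurog2-high cell and 2780 to 2856 in a Neurog2-low cell. The 20-copy RNA itself had a mean of 8.58 ± 1.18 (SD, n = 6) in the high and 9.81 ± 1.25 (SD, n = 6) in the low cells, and its part in the differences below was not tested. The 253 pairs of APs correlated between 0.57 and 0.71 over all probe sets, and no pair was identical.

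Neurog2 varied widely among these cells. The 6 high cells 37N, 42B, 45G, 45B, 37C and 40F had Neurog2 levels of 12.98, 12.22, 11.78, 11.56, 11.37 and 11.25. The 6 low cells 38O, 42J, 45K, 41B, 42D and 45F had levels of 2.77, 2.73, 1.87, 1.64, 1.46 and 1.06. The first cells outside the 2 groups were 45D at 10.72 and 30L at 3.03. In all, 8 of 23 APs were at or above the 20-copy level and 15 were under it, 9 of these in the middle of the ranking, and the order among the 15 is not one of copies. Correlations with Neurog2 over the 23 cells or the 11 middle cells therefore rank many signals that have no reliable order, and are given as descriptions of signal. The 3 IPs had Neurog2 at 12.04, 13.07 and 13.11, and 37N and 42B were the APs within that range. The neurons lay at 0.80, 2.89 and 9.63, under the level. At E16, 12 of 28 cells were at or above the level, with 13.28 the highest. Among the E12 APs the values were 12.03, 9.45 and 8.80, whereas the highest value was 3.86 in the 3 APs from neurospheres of E11 cells and 9.38 in the 4 E14 APs that overexpressed NICD and p18. The arrays of these last 3 groups were deposited at a common trimmed mean of 500.0 and the E11 arrays were not, so their levels are set beside the E11 values without a comparison.

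**Figure D1:**
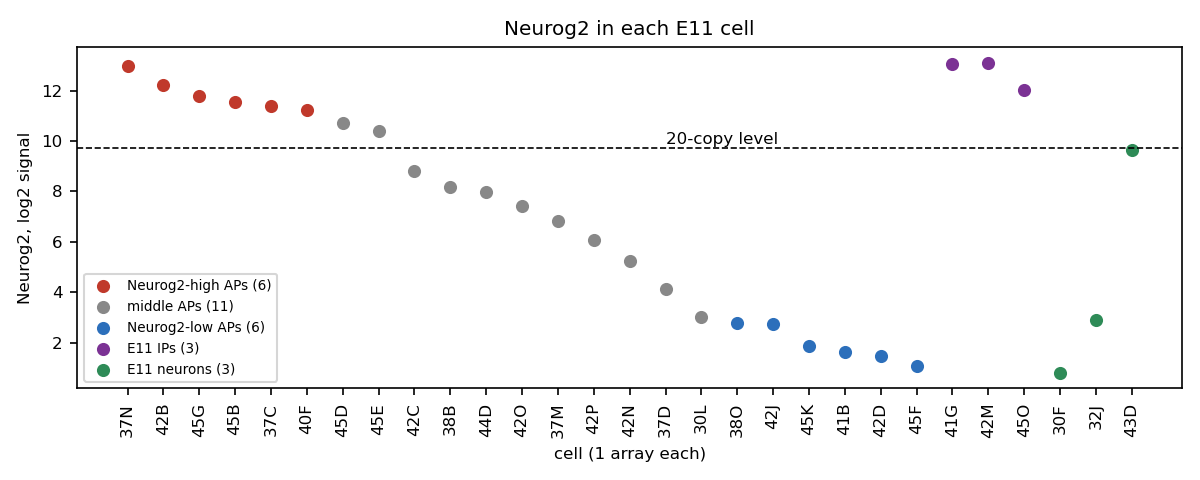
Neurog2 log2 signal (vertical axis) in each of 23 E11 APs in rank order, then 3 IPs and 3 neurons (horizontal axis, cell names). The dashed line is the 20-copy level. The 6 high APs lie between 11.25 and 12.98, the 6 low APs between 1.06 and 2.77, and the IPs at 12.04 or above.

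AP markers were found in both groups, though not each of them in every cell. Ttyh1 was at the level in 3 of 6 high and 4 of 6 low cells, Hes1 in 1 and 2, and Hes5 in 1 of each. Sox2, a transcription factor that maintains neural progenitors, was at or above the level in 6 of 6 high, 11 of 11 middle and 6 of 6 low cells. So were the cortical selector gene Lhx2 and the intermediate filament gene Vim. Pax6, the dorsal progenitor factor that lies upstream of Neurog2, had means of 11.07 in the high and 10.43 in the low cells. Eomes, the defining IP gene, and Insm1, which drives delamination of IPs, were under the level in all 23 APs, while the IPs had Eomes at 13.37 ± 0.14 (SD, n = 3). Of 19 neuronal genes, members were at the level 20 times of 114 in the high and 14 times of 114 in the low cells, with 6 in 37N, 6 in 45G and 4 in 38O the most, against 39 times of 57 in the neurons. Dcx and Stmn2 were under the level in all 12 cells.

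No marker of microglia, vessels, mesenchyme or Cajal-Retzius cells was at or above the level in any of the 12 cells. One choroid plexus marker reached it in 1 high cell. The 4 blood markers measured were under the level in all 12, but 1 middle cell, 42P, had Alas2 at 12.74, Hba-x at 13.40, Hbb-y at 13.62 and Hbb-bh1 at 13.85. That cell takes no part in the comparison of 6 with 6, and the highest and lowest correlations over 23 cells are also given without it.

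Genes that lie downstream of Neurog2 were found at the 20-copy level more often in the Neurog2-high cells. The list was compiled with earlier results of these data known, so the counts below are descriptions and not an independent check. Of its genes, 19 were measured and none was called. A call needs a mean difference of at least 2 on the log2 scale and a higher mean at or above the 20-copy level. Across all 10788 genes 183 were called lower, or 1.7%, and 121 higher, or 1.12%. In the 6 high cells they were at or above the level 22 times of 114 possible, in the 6 low cells 5 times of 114 and in the 11 middle cells 21 times of 209. Over all genes, the same count was 16651 in the high and 16909 in the low cells. By cell, 37N had 7 of the 19 genes at the level, 42B and 45G had 5 each, 37C and 40F 2 each and 45B 1. Of the low cells, 41B had 3, 42J had 2 and the other 4 had 0. The means were 3.67 ± 2.34 (SD, n = 6) and 0.83 ± 1.33 (SD, n = 6) genes per cell, so the groups overlapped. Without 37N the difference was 2.17 genes per cell in place of 2.83. Each IP had 12 to 15 of the 19, more than any AP.

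**Figure D2:**
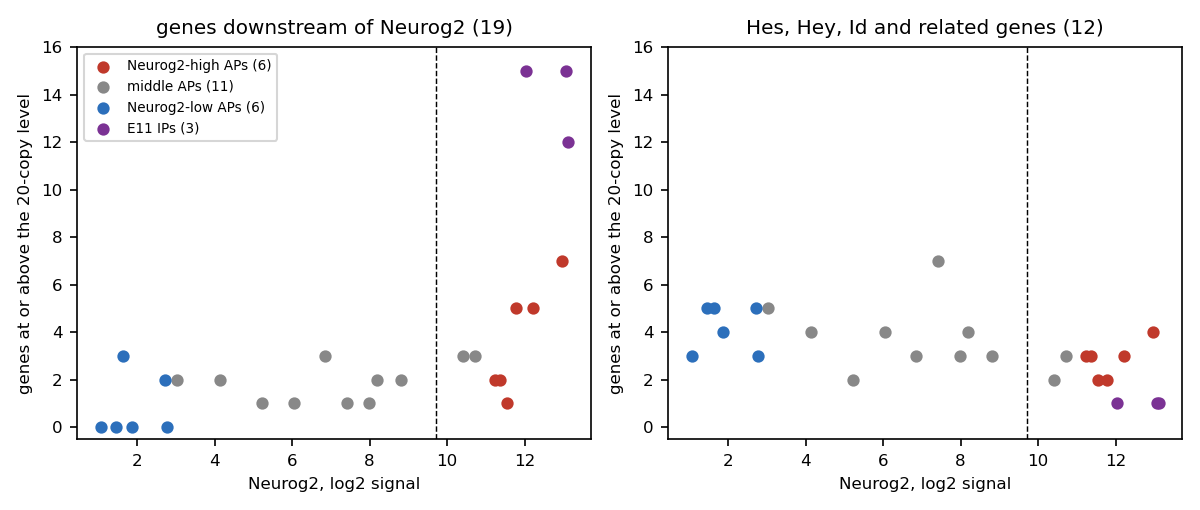
Number of genes at or above the 20-copy level in a cell (vertical axis) against the Neurog2 log2 signal of that cell (horizontal axis), for 19 genes downstream of Neurog2 and for 12 genes of the Hes, Hey and Id group. Points are E11 cells. Of the first list 37N holds 7, the Neurog2-low cells hold 0 to 3 and the IPs 12 to 15.

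Dll1, the Notch ligand that is a direct target of Neurog2, was at the 20-copy level in high cells and in no low cell. It had a lowest, median and highest level of 4.81, 9.37 and 13.15 in the high cells and of 4.01, 5.22 and 7.37 in the low cells. Its means were 9.0 ± 3.03 (SD, n = 6) and 5.33 ± 1.13 (SD, n = 6), a log2 difference of 3.67, and the groups overlapped. It was at or above the level in 3 of 6 high cells, 37N at 13.15, 42B at 10.62 and 45G at 10.57, in 0 of 6 low cells and in 1 of 11 middle cells, 45E at 10.22. Without 37N the difference was 2.84. Its Spearman correlation with Neurog2 was 0.61 over the 23 APs, which placed it 12th among 5874 genes at the level in at least 3 of them. In the 11 middle cells alone the correlation was 0.75, with Dll1 under the level in 10 of them and Neurog2 in 9. In the 28 E16 cells, which hold IPs as well, it was 0.41. The 3 IPs had Dll1 at 12.44, 12.62 and 13.14. Cells whose names share the number 45 or 42 were also compared alone, the 3 highest for Neurog2 against the 3 lowest. The Dll1 difference was 0.13 among cells named 45 and 3.02 among those named 42. Both comparisons, here and below, place middle cells in the groups of 3. The 3 lowest named 45 include 45E, with Neurog2 at 10.42 and Dll1 at 10.22. The 3 highest named 42 include 42C and 42O, with Neurog2 under the level at 8.82 and 7.41.

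Btg2, an antiproliferative gene that marks progenitors about to divide into neurons, separated the groups by the number of cells more than any other gene of the list. Its high cells had a lowest, median and highest level of 3.78, 9.84 and 11.59 and its low cells of 2.56, 3.61 and 4.94. Only 45B of the high cells, at 3.78, lay within the range of the low cells. Btg2 was at or above the level in 5 of 6 high cells, 0 of 11 middle cells and 0 of 6 low cells, and the difference in means was 5.70. The 5 cells were 40F at 11.59, 37N at 11.20, 37C at 9.87, 42B at 9.81 and 45G at 9.73, the last 3 of them close to the level of 9.72. In the middle cells, however, its correlation with Neurog2 was -0.41, with every cell under the level. The IPs had a mean of 11.36 ± 0.33 (SD, n = 3). A second probe set of Btg2 had means of 4.83 and 4.20 in the high and low cells and was under the level in all 12, so the pattern comes from 1 probe set.

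Set by the 20-copy level in place of the rank, the 8 APs at or above it for Neurog2 held all 4 of the APs with Dll1 and all 5 of those with Btg2, and the 15 APs under it held none. This rule, chosen after the values were seen, asked for a gene at the level in at least 4 of the 8 and in none of the 15, and 11 of 10788 genes, or 0.102%, met it. They were Arhgap39, BC055324, Btg2, Ddb2, Dll1, Errfi1, LOC102631979, Nhlrc3, Slc7a6os, Ttc4 and Znrf1. Of these, Dll1 and Btg2 were at or above the level in all 3 IPs, BC055324 in 2, Errfi1 and Znrf1 in 1 and the other 6 in 0.

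The remaining genes of the list did not divide the cells so sharply. Mfng, a fringe glycosyltransferase that modifies Notch, was at or above the level in 3 high, 4 middle and 1 low cells, with means of 8.40 ± 3.25 and 6.10 ± 3.35 (SD, n = 6 each). Cbfa2t2, a transcriptional corepressor, had means of 8.39 ± 2.96 and 5.42 ± 2.20 (SD, n = 6 each) and was at the level in 3 high, 5 middle and 0 low cells. Both were at the level in 4 of the 8 APs over it for Neurog2 and in 4 of the 15 under it. Hes6, which promotes differentiation and is high in IPs at 12.33 ± 0.85 (SD, n = 3), had a mean of 8.46 in both groups, with 3 high and 1 low cells at the level. Rnd2, a small GTPase through which Neurog2 acts on migration, was at the level in 4 high, 9 middle and 2 low cells. The groups of all 4 genes overlapped widely.

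Gadd45g and Neurog1 were at the level in 37N alone among the APs. Gadd45g, which restrains the cell cycle in committed progenitors, was 12.44 in 37N and under the level in the other 22 APs, with 45G at 8.83 and 40F at 8.71 next, and the IPs averaged 12.49 ± 0.92 (SD, n = 3). Neurog1, the paralogue of Neurog2, was 10.44 in 37N, no higher than 1.74 in the other 22 APs, and 12.37, 10.88 and 1.01 in the IPs. The same cell had the highest Eomes of the APs, 8.57, and the lowest Cdh2, 3.05, an adhesion molecule of the apical junctions, where the other 22 APs were at 9.77 to 12.49. Of the 19 genes, 11 were under the level in all 23 APs, among them Neurod1, Neurod4, Tbr1, Nhlh1 and Dll3. A list of 16 genes of IP commitment overlaps the first. Its members were at the level 22 times of 96 in the high and 10 times of 96 in the low cells. In the 3 IPs the count was 40 of 48. The cell 37N alone held 7, and the groups overlapped, at 1 to 7 and 1 to 3 genes per cell.

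**Figure D3:**
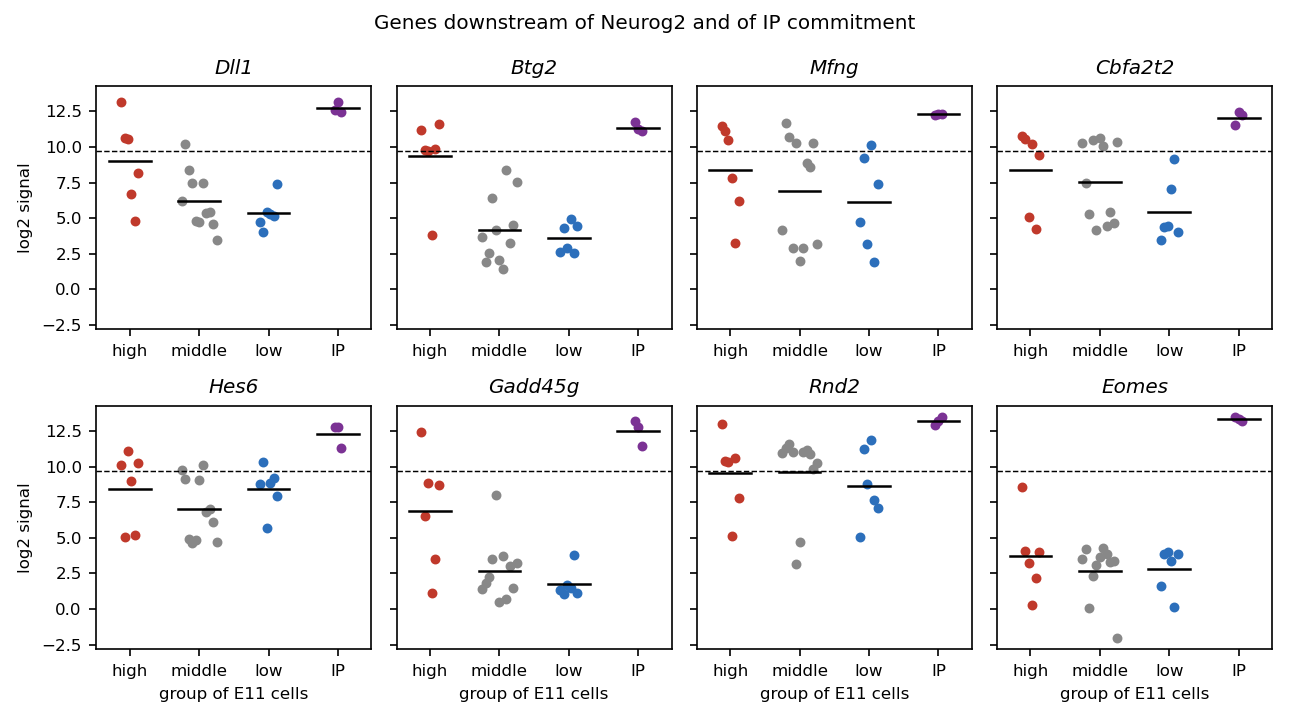
Log2 signal (vertical axis) of 8 genes in Neurog2-high (6), middle (11) and Neurog2-low (6) APs and in IPs (3), with 1 point per cell, a bar at the mean of each group and the 20-copy level dashed. Dll1 and Btg2 are at the level in 3 and 5 high cells and in no low cell, whereas Eomes is under it in all 23 APs.

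Promoter sequences of 3 genes are shown. Dll1 and Gadd45g are listed downstream of Neurog2 and were at the level in 3 high cells and in 37N, and Nrarp is a Notch-induced gene, described below, at the level in 4 low cells. Each window holds 250 bases before a transcription start and 50 after it, on the strand of the gene, from RefSeq on GRCm38.p6. Capitals mark every CANNTG, the E-box core that basic helix-loop-helix factors bind and that reads as the same pattern on either strand. Dll1 has 2 annotated starts on chromosome 17, minus strand, at chr17:15376883-15377182 and chr17:15375774-15376073. Gadd45g lies at chr13:51846425-51846724 and Nrarp at chr2:25180508-25180807, both on the plus strand.
Dll1, start 1: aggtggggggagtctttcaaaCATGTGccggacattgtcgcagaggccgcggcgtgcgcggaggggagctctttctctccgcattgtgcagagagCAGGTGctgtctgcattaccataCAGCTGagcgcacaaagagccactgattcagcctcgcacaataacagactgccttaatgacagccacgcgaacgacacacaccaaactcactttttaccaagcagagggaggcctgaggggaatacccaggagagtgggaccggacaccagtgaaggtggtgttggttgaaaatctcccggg
Dll1, start 2: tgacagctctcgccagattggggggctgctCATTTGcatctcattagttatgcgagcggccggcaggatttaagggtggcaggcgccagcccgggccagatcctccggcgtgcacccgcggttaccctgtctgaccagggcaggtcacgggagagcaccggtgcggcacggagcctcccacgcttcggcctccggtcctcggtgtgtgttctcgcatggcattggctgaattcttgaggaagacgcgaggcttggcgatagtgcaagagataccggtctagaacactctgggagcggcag
Gadd45g: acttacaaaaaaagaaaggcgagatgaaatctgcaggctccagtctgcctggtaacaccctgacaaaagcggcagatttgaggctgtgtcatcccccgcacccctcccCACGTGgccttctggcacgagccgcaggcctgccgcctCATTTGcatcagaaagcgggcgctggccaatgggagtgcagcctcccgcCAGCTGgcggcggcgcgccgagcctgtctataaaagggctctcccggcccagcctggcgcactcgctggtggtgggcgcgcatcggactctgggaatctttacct
Nrarp: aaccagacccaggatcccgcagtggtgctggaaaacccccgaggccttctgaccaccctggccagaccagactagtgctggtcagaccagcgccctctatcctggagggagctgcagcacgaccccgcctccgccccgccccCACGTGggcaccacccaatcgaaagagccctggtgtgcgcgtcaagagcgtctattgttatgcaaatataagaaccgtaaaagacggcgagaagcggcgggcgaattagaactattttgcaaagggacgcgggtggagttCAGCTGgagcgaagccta
The windows hold 3 and 1 matches in Dll1, 3 in Gadd45g and 2 in Nrarp. CANNTG occurs in 72.3% of 32851 promoter windows of this length, and the windows of Btg2, Cbfa2t2, Notch1 and Neurog2 have none. CAGCTG, which is in 16.3% of all windows, is in one window of each of the 3 genes shown. Each window of Hes6, which had the same mean in both groups, holds it as well. The genes shown were selected, so their share is not compared with that of all windows. These matches are letters in a window and carry no reading of binding.

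Notch receptors and ligands differed in both directions between the groups. Of 8 Notch receptors and ligands measured, 1 was called lower and 0 higher. The median difference of the list was -0.30, against -0.06 over all genes, and 5 of 8 were negative, against 5652 of 10788 over all genes. Among cells named 42 alone the median was 0.68, in the opposite direction.

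Notch1, a receptor of these progenitors, was the gene called. Its lowest, median and highest levels were 3.68, 6.56 and 10.91 in the high cells and 9.76, 10.46 and 12.33 in the low cells. It was at or above the level in all 6 low cells, in 5 of 11 middle cells and in 2 of 6 high cells, 45G at 10.91 and 45B at 10.03, which lay within the range of the low cells. The means were 7.05 ± 3.00 and 10.71 ± 1.07 (SD, n = 6 each), at least 1.67-fold lower with high cells under the 20-copy level set to it. In the 11 middle cells the correlation with Neurog2 was -0.36 and in the 28 E16 cells it was 0.30. The other probe set of Notch1 had means of 6.24 in the high and 4.98 in the low cells, in the opposite direction and under the level, and with both probe sets averaged the difference was -1.20. Among cells named 45 alone it was -0.07, and among those named 42 it was -2.98.

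Notch2 had means of 3.12 ± 4.84 and 7.55 ± 3.48 (SD, n = 6 each) in the high and low cells, and the ligand Jag1 of 2.86 ± 3.46 and 6.05 ± 4.58 (SD, n = 6 each). Both were at the level in 0 of 6 high and 2 of 6 low cells, and all 4 means are under it. The Jag1 difference was 2.40 among cells named 42 alone. Notch3 did not follow them. It was at 10.46 to 12.02 in the high and 8.80 to 12.09 in the low cells, with 6 and 5 cells at the level.

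Among Notch targets and other repressors of differentiation, 10 of 12 measured genes had a negative difference, with a median of -0.48. Of the 12, 1 was called lower and 0 higher. They were at the level 17 times of 72 in the high and 25 times of 72 in the low cells. The called gene, Nrarp, is induced by Notch and feeds back on it. Its lowest, median and highest levels were 5.07, 8.99 and 9.59 in the high and 8.36, 11.41 and 12.04 in the low cells, so that 0 of 6 and 4 of 6 were at the level. The difference was -2.39, and -1.76 without 42B, in which Nrarp was lowest. Among the middle cells Nrarp was at the level in 6 of 11 and had a correlation of 0.05 with Neurog2. Among cells named 45 alone the difference was 1.68, in the opposite direction.

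Hes1, the classic Notch effector that represses Neurog2, had means of 6.32 ± 3.77 and 9.16 ± 1.30 (SD, n = 6 each), both under the level, with 1 high and 2 low cells at it. Hes5, its partner in the cortex, was at the level in 1 of 6 cells of each group and in 5 of 11 middle cells, and Hey1 in 4 of 6 high and 6 of 6 low cells. Id4, an inhibitor of basic helix-loop-helix dimers, was at 12.55 to 13.60 in all 12 cells and at 3.42 ± 4.09 (SD, n = 3) in the IPs. A second Id4 probe set, in contrast, was at the level in 3 high and 6 low cells, with means of 10.19 and 12.34. Id2 went the other way, with means of 6.99 and 2.38, and was at the level in 1 high cell and no low cell. Sox21 and Rest were at the level in the same number of cells in both groups, 3 and 1. The E proteins that pair with Neurog2 were counted as well. Tcf12 was at the level in all 12 cells, and Tcf3 and Tcf4 in 5 of 6 in each group.

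**Figure D4:**
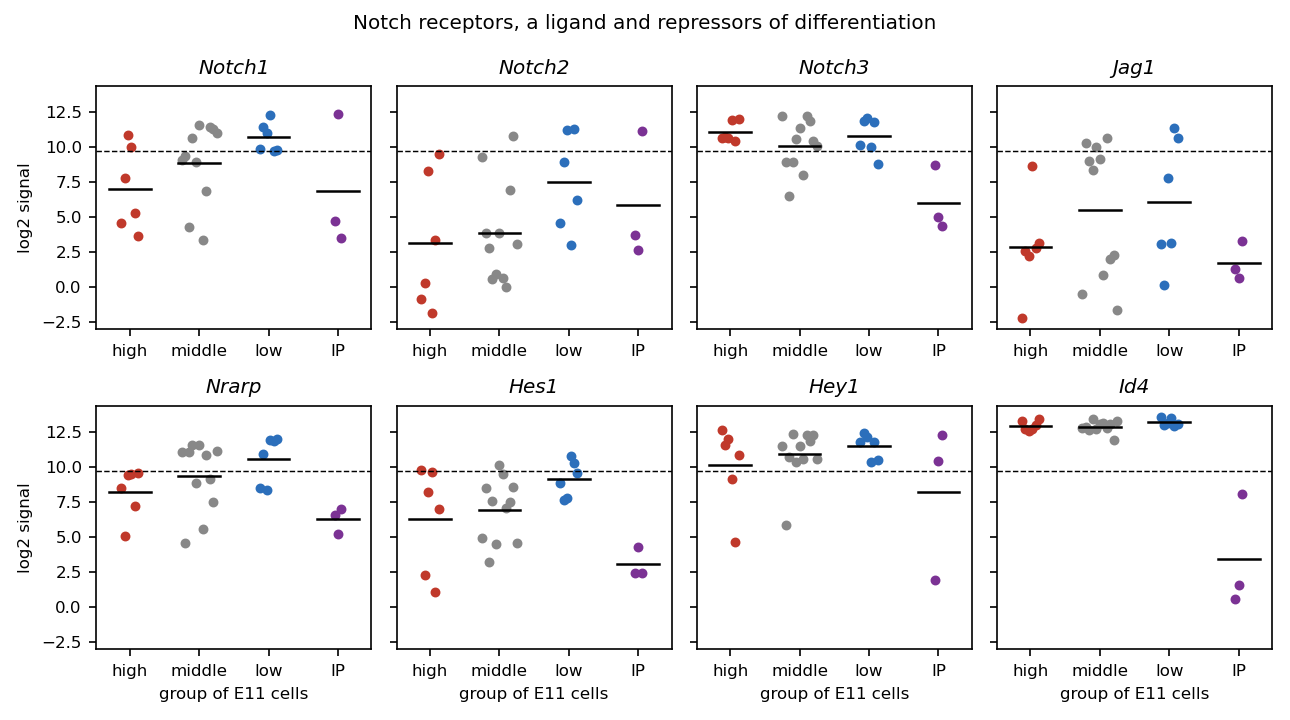
Log2 signal (vertical axis) of 8 genes of Notch signalling and of repressors of differentiation in Neurog2-high (6), middle (11) and Neurog2-low (6) APs and in IPs (3), with 1 point per cell, a bar at each mean and the 20-copy level dashed. Notch1 is at the level in 2 of 6 high and 6 of 6 low cells and Nrarp in 0 of 6 and 4 of 6, while Notch3 and Id4 overlap.

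Within the Notch machinery, 15 genes for processing and transcription were measured and 1 was called. Rbpj, the DNA-binding partner of cleaved Notch, was higher in the Neurog2-high cells, with means of 9.98 ± 0.97 and 7.76 ± 3.03 (SD, n = 6 each). Its 2 other probe sets had the opposite sign, at 8.08 and 9.38 and at 7.02 and 7.75, and the mean over all 3 differed by 0.07. Without 37N, 37C or 38O the call was lost, with 1.22 the smallest difference, and among cells named 42 alone the difference was -0.86. The sheddase Adam10 was at the level in 3 cells of each group, and the gamma-secretase subunit Psenen in 5 of each.

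Genes of AP identity were largely shared, with exceptions. Of 20 measured, 10 differences were positive and 10 negative, with a median of -0.04, and a cell held 11 to 13 of them at the level in the high group and 12 to 15 in the low group. Called lower were 2, Sox1 and Ttyh1. Sox1, a progenitor transcription factor of the same family as Sox2, was at -1.28, 8.0 and 9.25 (lowest, median and highest) in the high cells and at 9.47, 9.91 and 11.48 in the low cells, so the groups did not overlap. It was at the level in 0 of 6 high, 6 of 11 middle and 3 of 6 low cells. By the 20-copy level of Neurog2, it was at the level in 0 of 8 APs over and in 9 of 15 under. That split was chosen after the values were seen, and how many of all genes show such a pattern was not counted. The Sox1 difference was -3.35, and -1.73 without 45B, the lowest cell, and its correlation in the middle cells was 0.07. Among cells named 42 alone the difference was 1.67. Ttyh1, a membrane protein used as an AP marker, had means of 8.31 ± 3.69 and 10.55 ± 1.60 (SD, n = 6 each). It was at 1.26 in 45B, and without that cell the difference was -0.82 and no longer called. It was -1.97 without 42J. Sox3, another factor of that family, and Cdh2 had differences of -1.85 and -1.98 without a call. The correlation of Cdh2 with Neurog2 was -0.53 over 23 APs, -0.40 in the middle cells and -0.61 in the E16 cells.

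The cell cycle lists gave no call in either direction. Of 21 G1/S genes, 14 differences were positive and 7 negative, with a median of 0.44. Members were at the level 80 times of 126 in the high and 78 times of 126 in the low cells. The replication helicase genes Mcm6 and Mcm4, named after their values were seen, were at the level in all 6 high cells. They were at it in 4 and 5 low cells, with means of 11.90 and 10.30 for Mcm6 and of 11.94 and 9.95 for Mcm4. In the 11 middle cells, Mcm4 and Mcm6 had correlations of 0.86 and 0.71 with Neurog2, and in the E16 cells of -0.21 and 0.28. Ccne1, the cyclin of S-phase entry, was at the level in 2 high and 0 low cells. Of 21 G2/M genes, 6 differences were positive and 15 negative, with a median of -0.15. Mki67, a marker of cycling cells, was at the level in 6 high and 5 low cells. Leaving out 1 cell at a time moved the G1/S median between 0.10 and 0.59 and the G2/M median between -0.57 and 0.20. Of the genes of cell cycle exit, 12 in all, Btg2 was the one with 4 or more cells more at the level.

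Calls were also found in 3 further lists. In the list of deep-layer genes, 9 measured, Nfia and Tle4 were called lower. Nfia, a transcription factor of later gliogenesis, had means of 5.34 ± 4.75 and 10.07 ± 1.35 (SD, n = 6 each), with 2 high and 4 low cells at the level, but 4 other probe sets were under the level in all 12 cells. Tle4, a Groucho corepressor, was at 10.90 or more in the 6 low and 4 of the high cells, at 1.01 in 42B and at -0.85 in 45G, and with 45G left out the difference was -1.98. In the list of 19 neuronal genes, Crmp1 was called lower, with means of 7.05 and 9.79, and the call was lost without 38O, 41B or 42D, at -2.51, -2.53 and -2.64, where the low mean came under the level. Tubb3 and Map2 were at the level in 3 cells of each group. Mxi1, an antagonist of Myc, was called lower in the list of 9 Myc family genes, with 3 cells of each group at the level, and its call was lost without 42B, 45B, 38O, 45K or 41B, with -1.09 the smallest difference.

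Across all genes, few differences passed the rule of means. Differences were positive for 5136 and negative for 5652 of 10788. Of the 121 genes called higher, 118 had a low-group mean under the 20-copy level, and of the 183 called lower 178 had such a high-group mean. The median called gene had 5 cells at the level in one group and 2 in the other. In cells that the rule did not use to form the groups, the called genes had correlations with Neurog2 close to those of all genes. In the 11 middle cells the median correlation was -0.02 for genes called higher, with 56 of 121 positive, and -0.02 for genes called lower, with 89 of 183 positive, against 0.01 over all genes. In the 28 E16 cells the medians were 0.02 and -0.01, against 0.00. By number of cells, a rule added after the values were seen, 49 genes, or 0.454%, were at the level in at least 4 high cells more and 51, or 0.473%, in at least 4 low cells more, with Btg2 among the former and Notch1 and Nrarp among the latter.

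Among genes whose higher mean was at or above the level, the largest difference upward was that of Kntc1, a kinetochore gene of the spindle checkpoint, with means of 10.30 ± 1.41 and 2.75 ± 3.35 (SD, n = 6 each). It was at the level in 4 high, 4 middle and 0 low cells and had a mean of 10.12 in the IPs. Among cells named 42 alone its difference was -2.10, in the opposite direction. Next was Map3k7, the kinase TAK1, with a difference of 7.15, though its 3 other probe sets had means of 3.00 to 4.67 in both groups. Rad17, a clamp loader of the DNA damage checkpoint, was at 10.12 to 12.33 in the high cells and at 0.20 to 12.14 in the low cells, at least 2.34-fold higher with low cells under the 20-copy level set to it. The others of the 12 largest with a higher mean at the level were Smyd2, Tpp2, Sass6, Foxj3, Mapre2, Rpap3, Rcbtb2, Nanp and Arid2, with differences of 4.27 to 5.74. Downward, under the same limit, the 12 largest were Syce2, Derl1, Eif2b1, Ipo8, Zfp330, Zmym1, Tmem242, Dnmbp, Nfia, Anapc10, Tacc2 and Coa3, with differences from -7.52 to -4.33. Derl1, of endoplasmic reticulum-associated degradation, was 1 of these. It was at the level in 2 high cells, at 11.79 in 40F and 10.69 in 42B, and at 0.12 or less in the other 4.

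In 6 genes the groups of 6 did not overlap, 2 higher (0.0185% of 10788) and 4 lower (0.0371%). With signals under the level set to it, 1 and 2 of them did not overlap, since the gap between the groups lay under the level for Tpp2, Sox1 and Ipo8. Tpp2, a large cytosolic peptidase, was at 9.70 to 11.57 in the high and at 1.01 to 9.43 in the low cells. Its correlation with Neurog2 was the highest of 5874 genes, 0.80 over 23 cells and 0.78 without 42P, and it was 0.55 in the 11 middle cells and 0.36 in the 28 E16 cells. Its 2 other probe sets were higher in the same direction, with 1 high cell at the level in each. Rasa1, a negative regulator of Ras, was at 10.30 to 11.71 in the high cells and at 6.88 to 10.30 in the low cells, with 6 of 6 and 1 of 6 cells at the level, and the lowest high cell, 45B, and the highest low cell, 45F, were equal to 2 decimals. In the middle cells, though, its correlation was -0.17. Syce2, known from the synaptonemal complex of meiosis, was at the level in all 6 low and in 0 of 6 high cells, with means of 10.99 ± 0.64 and 3.47 ± 2.44 (SD, n = 6 each), at least 2.42-fold lower with high cells under the 20-copy level set to it. It was at the level in 6 of 11 middle cells, where its correlation with Neurog2 was 0.64, opposite to that of the extremes. Ipo8, a nuclear import receptor, was at 0.99 to 6.71 and 7.02 to 11.52, and its call was lost without 38O, 42D or 45F, at -5.56, -5.55 and -5.60, where the low mean came under the level. Its correlation of -0.75 over 23 cells, also -0.75 without 42P and -0.45 in the middle cells, was the lowest of all genes ranked. Plagl1, an imprinted zinc-finger gene, was far above the level in every cell, at 12.04 to 13.27 and 13.28 to 13.51. Sox1 is the sixth.

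**Figure D5:**
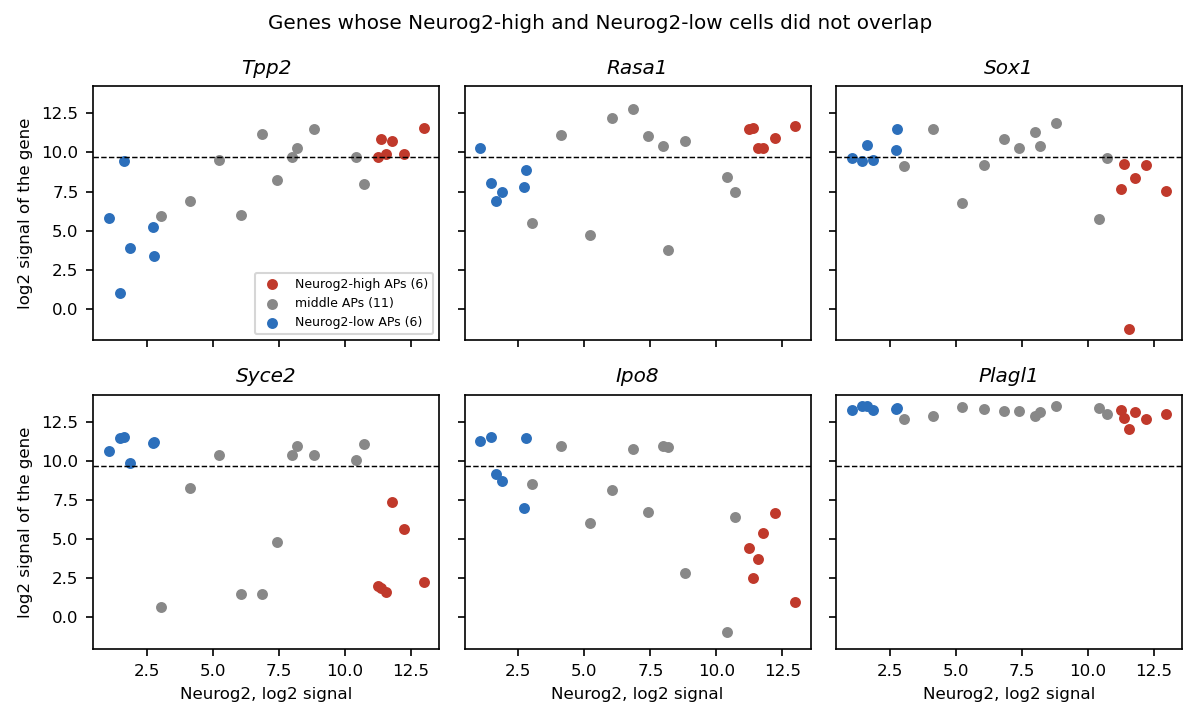
Log2 signal (vertical axes) of the 6 genes whose Neurog2-high and Neurog2-low cells did not overlap, against the Neurog2 log2 signal of each cell (horizontal axes), for 23 E11 APs with the 20-copy level dashed. Tpp2 and Ipo8 run along the middle cells with correlations of 0.55 and -0.45, while Syce2 turns to 0.64 there.

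Ranked by likeness to Neurog2 over all 23 cells, the 10 genes nearest were Tpp2, Zfp511, Foxj3, Klhl26, Kntc1, Glyr1, Fbxw8, Lmo3, Map3k7 and Ebna1bp2, with correlations of 0.63 to 0.80. The 10 farthest were Ipo8, Fjx1, Zadh2, Psma5, Ss18l2, Zfp758, Pnrc2, Bud31, Inpp5b and Clpp, at -0.75 to -0.56. In all, 42 of the 5874 genes ranked had a correlation of at least 0.5 and 38 of at most -0.5. How many genes would reach such values without any relation to Neurog2 was not tested. All points share the amplification and array of their cell with the Neurog2 value they are set against. In the 11 middle cells 9 of the first 10 kept a positive sign, Klhl26 being the exception at -0.16, and Fbxw8 and Lmo3 reached 0.87 and 0.85 there. Fbxw8, a substrate receptor of a cullin ligase, was at the level in 4 high, 6 middle and 0 low cells, but the E16 cells gave -0.21. Lmo3, a LIM-only cofactor, was at the level in 3 cells only, all of them in the middle of the ranking. In the E16 cells the correlations of the 20 genes lay between -0.34, for Inpp5b, and 0.36, for Tpp2, and Clpp and Pnrc2 had the opposite sign to that in the E11 APs, at 0.28 and 0.26.

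The E16 cells also gave values for the neurogenic genes. There the correlation with Neurog2 was 0.69 for Gadd45g, 0.68 for Mfng, 0.66 for Eomes, 0.64 for Hes6, 0.58 for Cbfa2t2 and 0.37 for Btg2. It was -0.57 for Notch3, -0.50 for Ttyh1 and -0.37 for Hes1. The E16 cells are of mixed AP and IP type, and neither type was separated here. Among the cells of other groups, the E12 AP with Neurog2 at 12.03 had Dll1 at 4.41 and Btg2 at 5.12, both under the level, and Dll1 was at the level in 1 of the 3 neurosphere APs, at 10.32 with Neurog2 at 3.86.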

How the data were processed

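Single-cell cDNA was amplified and hybridized to Affymetrix mouse genome arrays, 1 cell to an array. The deposited values are linear signal intensity values that the authors made with MAS5, 1 column per cell, and columns of no other sample were found. Here all 68 arrays were quantile normalized together and log2 transformed. Probe sets numbered 45101, of which 34958 had 1 gene symbol, 932 several and 9211 no entry in the platform annotation. Probe sets under the 20-copy level (the median signal of the phe spike RNA) in all 68 cells were left out, and each gene was given by its probe set of highest mean, which left 10788 genes besides Neurog2. A call needed a difference in mean log2 signal of 2 and a higher mean at or above that level. Since the labels name no embryo or litter, the cells of a group were taken as 1 sample, and no test was run. The cell types came from the study, not from the labels. Cell 31i was left out as of low quality by the study.

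The members and the gene lists were chosen with earlier results of these data known. The named genes were Neurog2, the 12 largest differences in each direction whose higher mean reached the level, the called genes of all lists, the genes of 5 neurogenic and Notch lists at the level in 3 or more APs, and the 10 highest and 10 lowest Spearman correlations. Further genes, among them Gadd45g, Eomes, Neurog1, Id2, Cdh2, Mcm4 and Mcm6, were named after their values were seen. So were the rules on 4 or more cells and on the 8 APs over against the 15 under the level. Scripts were tested on simulated data. Python 3.11.15, numpy 2.4.6, pandas 2.3.3 and scipy 1.17.1 were used.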

Additional observations from a re-analysis of the deposited data

Results flagged for a closer look

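In 17 of 200 groups of 6 cells examined, over 69 named genes and 31 gene lists, 1 cell stood apart from the other 5. Its gap to the nearest cell, as a share of the range of the 6, was above Dixon's critical value. Chance gives about 1 in 20 groups where values are normally distributed, which was not checked here. Many of the genes were also named for large differences, so the rate that chance gives here is not known. The lone cell was the lowest in 15 of them and the highest in 2, and no cause was tested.

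The following were found in the Neurog2-high cells. Btg2 had 45B at 3.78 against 9.73 to 11.59, a gap of 0.762. Bud31 had 37N at 0.76 against 10.76 to 12.13, a gap of 0.879. Ebna1bp2 had 37C at 6.32 against 10.48 to 12.18, a gap of 0.711. Fjx1 had 37N at 0.84 against 6.97 to 10.11, a gap of 0.662. Mapre2 had 40F at 8.02 against 9.92 to 11.01, a gap of 0.635. Nanp had 37N at 7.26 against 10.09 to 10.95, a gap of 0.767. Sox1 had 45B at -1.28 against 7.55 to 9.25, a gap of 0.839. Tcf3 had 37C at 7.24 against 10.23 to 11.95, a gap of 0.635. Tcf4 had 42B at 4.86 against 10.11 to 12.13, a gap of 0.722. Mean of the mesenchyme list had 45G at 2.04 against 2.61 to 2.93, a gap of 0.642.

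The following were found in the Neurog2-low cells. Anapc10 had 45F at 7.72 against 10.34 to 11.63, a gap of 0.67. Dnmbp had 45F at 7.23 against 9.74 to 10.75, a gap of 0.712. Inpp5b had 42D at 1.76 against 9.09 to 11.68, a gap of 0.739. Pnrc2 had 42D at 11.73 against 10.70 to 10.93, a gap of 0.778. Tcf3 had 38O at 8.84 against 10.76 to 11.42, a gap of 0.744. Tmem242 had 38O at 8.94 against 10.66 to 11.05, a gap of 0.813. Mean of the blood list had 42J at 4.35 against 1.5 to 2.39, a gap of 0.687.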

How the results depend on the processing

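The comparison gave 121 genes higher and 183 lower. The median of all genes was -0.06, -0.20 without normalization and -0.15 with arrays brought to equal lys spikes. With signals under the 20-copy level set to it, no gene was called in either direction (0 and 0), 1 and 2 did not overlap, and the median of the IP list was 0.00. That 0 genes differed by 4 or more cells there is fixed by the setting, since every cell is then at or above the level. With 8 against 8 cells 120 genes were called lower, and 0 and 1 did not overlap. With 11 against 11 cells 45 and 75 were called, 0 and 0 did not overlap, and the median of the AP list was -0.49. With 5 against 5 cells 13 and 18 did not overlap and 26 and 32 differed by 4 or more cells. The mean of all probe sets of a gene gave 71 and 104 calls, 0 genes higher without overlap, 31 at the level in 4 or more cells fewer, and 0.67 Notch genes per cell more in the high cells. Ranking in the deposited signals gave 4 and 2 without overlap and a Notch receptor and ligand median of -1.45. The deposited signals gave 0 genes higher without overlap and 19 correlations of -0.5 or less. The 8 APs over against the 15 under, added after the data were seen, gave 60 and 60 calls and 0 and 0 without overlap.

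Cells named 42 alone, 3 against 3, gave 276 and 438 calls, 180 and 225 without overlap, and medians of -0.19 for the IP, 0.68 for the Notch and -2.58 for the G2/M list, with 0.33 Hes, Hey and Id genes per cell more in the high cells. Cells named 45 alone gave 454 and 385 calls, 196 and 199 without overlap and an IP list median of 0.0067. The 11 middle cells alone gave 403 and 390 correlations past 0.5 in size. Signs turned for Arid2 (-1.99, normalized over the 30 E11 arrays), Crmp1 (0.88) and Nrarp (1.68) in cells named 45, Kntc1 (-2.10), Rbpj (-0.86), Rcbtb2 (-1.49), Sox1 (1.67) and Ttyh1 (0.36) in cells named 42, and the correlation of Klhl26 (-0.16) in the middle cells. The groups of 3 named 42 or 45 are not wholly Neurog2-high against Neurog2-low cells. They include the middle cells 42C, 42O, 42N, 45D and 45E. Another probe set of Arid2 had means of 6.38 in the high and 8.26 in the low cells. Each normalization chose the probe set of highest mean anew. The cause of the turned signs was not tested. Leaving out 1 cell at a time gave 110 to 174 genes called higher, 168 to 233 lower, 3 to 11 higher and 4 to 11 lower without overlap, and 17 to 79 and 10 to 96 at the level in 4 or more cells more or fewer. Neurog2 has 1 probe set, so another was not run. No paired analysis was possible because the comparison comes from no test, and the meaning of the numbers in the cell names is not given. The values within cells named 42 and 45 are descriptions and do not replace a paired analysis. Signals under the 20-copy level limit every difference between low means.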
